A study of Bos grunniens and Bos taurus with 11 samples.

Results

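The most abundant transcripts in lung libraries of yak and cattle are described here, taken as the genes whose FPKM averaged 500 or more over 11 libraries. FPKM is the number of sequenced fragments scaled to the length of the gene and to all fragments counted in the library, so levels of genes of different length can be compared on it. Of the 17267 genes listed, 71 met this rule (0.411%), and they are called members below. The members were chosen by their FPKM in these same 11 libraries, so their high level, their share of the reads and their spread are given as a description without a test.

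The lungs came from indigenous adult male animals, with 1 library for each animal. The control group (CON) held 2 Zaosheng cattle living at 1500 m. The yak groups held 3 animals each, at 3400 m in Maqu (T1), at 4200 m in the 3 counties Linzhou, Bange and Dangxiong (T2) and at 5000 m in Anduo (T3). Species, altitude and place all differed between CON and the yaks, and the reads of both species were mapped to a yak assembly, so that the parts of these factors cannot be told apart in any comparison with CON. Altitude and county likewise cannot be told apart in any comparison between yak groups, because these shared no county. By the sample names of the paper, each of the 3 T2 animals came from a different county.

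In most tissues a small number of genes supplies a large part of the mRNA. In mammalian lung these are known to include the surfactant proteins made by alveolar type 2 cells, secreted proteins of the airways, and genes that most cells use, such as those of the ribosome, the cytoskeleton and ferritin, while blood in the tissue adds haemoglobin mRNA. Because a library holds a fixed number of reads, a gene that takes a larger share leaves fewer reads, and so lower FPKM, for every other gene. Lung tissue is a mixture of cells, and a lower level in bulk RNA cannot tell fewer cells of a type from less RNA per cell.

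The members are given by the identifiers of the files, because the files gave a gene name or a GO term for 0 of the 71. Of the 71 identifiers, 0 were found among the 40772 entries of a RefSeq gene table (assembly Bosgru_T2T1.0). Of all 17267 genes listed, 390 had a gene name and 0 were found in that RefSeq table. The lists of cell type markers and of ribosomal, mitochondrial and other gene families could therefore not be applied, the tissue could not be checked against its defining genes, and no role is assigned to any member. The extraction protocol in the labels speaks of retinas, whereas the source and tissue labels of each library read lung. Of the members, 63 had a numeric identifier and 8 the prefix NewGene, which marks genes added by the authors' own assembly. NewGene identifiers made up 11.3% of the members and 51.1% of all genes listed.

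The members with a numeric identifier were short for such genes. The median length of all 71 members was 874 bases, with a range from 228 to 8168 bases. For all 17267 genes listed the median was 998 bases. Among genes with a numeric identifier, the 63 members had a median of 903 bases, against 2003 bases for all 8451 such genes. Below 1000 bases were 34 of these 63 members, whereas 18.3% of all numeric genes were that short. FPKM divides by length, so that a short gene reached 500 FPKM with fewer reads than a long one. Of the 71 genes with the highest mean share of reads, which does not divide by length, 39 were members.

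Most members reached 500 FPKM in their median library but not in every library. In 27 members the FPKM was 500 or more in each of the 11 libraries, and in 60 it was 250 or more in each. The group mean reached 500 in 57 members in CON and in 65 members each in T1, T2 and T3, and in 51 members it did so in all 4 groups. The median over libraries was at least 500 in 65 members and in 0 of the genes that were not members. Without their own highest library, 5 members would have had a mean under 500. Just inside the threshold lay 102264582 (mean 523 FPKM) and 102280622 (522 FPKM), and just outside it 102273898 (487 FPKM) and 102265221 (475 FPKM).

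**Figure D1:**
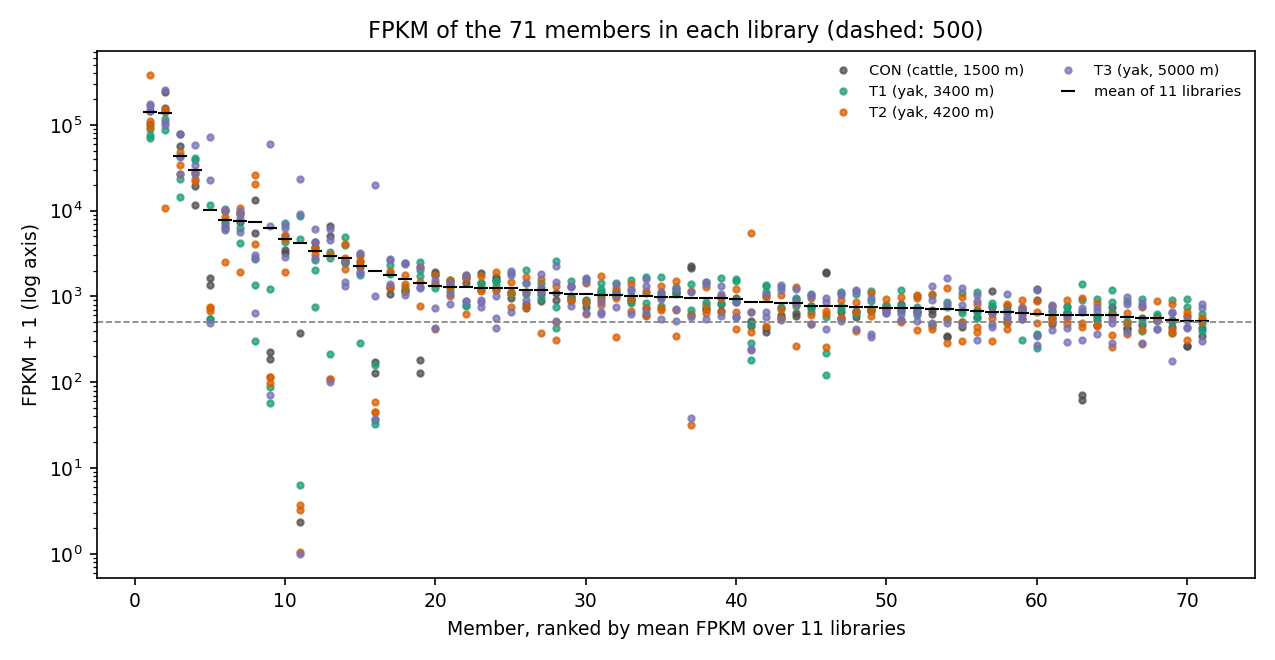
FPKM + 1 of each of the 71 members on a log axis, ranked by the mean over 11 libraries, with 1 point per library coloured by group and a bar at the mean; the dashed line is 500 FPKM. The first 2 members have means of 141280 and 137638 FPKM, and some members have single libraries far above or below the others.

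Together the 71 genes held between 25.8% and 49.3% of the reads counted on genes in a library. The share of a gene was taken as FPKM times length over the sum of that product in the library. The libraries held 28138973 to 54515645 counted reads, so that the exact (Clopper-Pearson) 95% interval of each summed share was at most 0.0185 percentage points to either side, which covers counting error only and not the spread between animals. The members held 36.5% and 33.6% in the 2 cattle (35.1% ± 2.07, SD, n = 2). In T1 they held 26.0%, 30.4% and 25.8% (27.4% ± 2.63, SD, n = 3). In T2 they held 33.6%, 29.9% and 33.1% (32.2% ± 2.01, SD, n = 3). In T3 they held 47.3%, 49.3% and 30.8% (42.5% ± 10.2, SD, n = 3). T1 and CON did not overlap, and T3 replicates 1 and 2 were above every other library, whereas T3 replicate 3 lay within the range of T2. The 9 libraries other than T3 replicates 1 and 2 ranged from 25.8% to 36.5%.

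Reads were concentrated in the same 2 T3 libraries, which also had the most genes with 0 reads. They had 2816 and 3747 such genes, while the other libraries had 1821 to 2342. T3 replicate 2 also had the fewest counted reads (28138973), whereas T3 replicate 1 had 40005160, above the median library of 38912475. What part the quality of these libraries had in the results for T3 was not tested. The number of genes that together held 50% of the reads was 50 in T3 replicate 2, 59 in T3 replicate 1 and between 201 and 387 elsewhere. In T3 replicate 1 the most read members were also among the first in the other libraries, with 14.8% for 102266368, 6.83% for NewGene.4333 and 5.15% for 102282259. In T3 replicate 2 a set of 3 other members, described below, held 17.6%. Left without those 3, the members held 31.7% of the reads in T3 replicate 2 and 44.6% in T3 replicate 1.

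**Figure D2:**
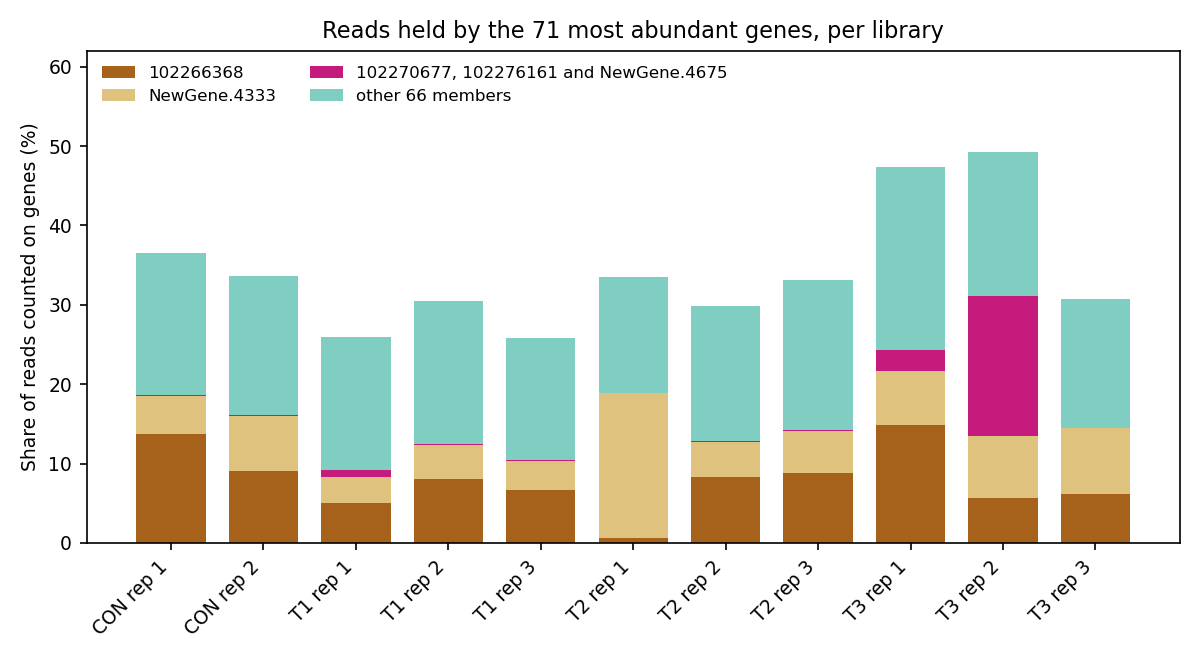
Stacked bars give the share (%) of the reads counted on genes that the 71 members held in each library, divided into 102266368, NewGene.4333, a set of 3 members (102276161, 102270677 and NewGene.4675) and the other 66. The bars reach 47.3% and 49.3% in T3 replicates 1 and 2 and 25.8% to 36.5% in the other libraries.

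The 10 members with the highest mean share of reads were 102266368 (7.91% of reads, mean of 11 libraries), NewGene.4333 (6.72%), 102282259 (2.63%), NewGene.14489 (2.26%), NewGene.14154 (1.84%), 102267346 (1.62%), 102276161 (1.41%), 102285161 (0.658%), 102270677 (0.509%) and 102282148 (0.448%). Most are short, but NewGene.14154 is 8168 bases long and 102267346 is 4769 bases long. The first 2 stood apart from the rest on both scales, and either of them was the most read gene in all libraries except T3 replicate 2.

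The gene 102266368 (575 bases) was the most read gene in 8 of the 11 libraries. Its level was 238875 and 158511 FPKM in CON, 87128, 140986 and 116849 FPKM in T1, and 257394, 98375 and 107514 FPKM in T3. In T2 it was 143819 and 153958 FPKM in replicates 2 and 3 but 10610 FPKM in replicate 1, the lowest of all libraries, where it held 0.610% of the reads. The gene NewGene.4333 (476 bases) had its highest level in that same library. Its level was 101654 and 144797 FPKM in CON, 70439, 89568 and 76725 FPKM in T1, 383637, 93616 and 110935 FPKM in T2, and 143545, 164681 and 174487 FPKM in T3. All 3 T1 libraries were below all T2 and T3 libraries, while T2 lay on both sides of T3.

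The balance between these 2 genes changed from animal to animal more than their sum. The ratio of 102266368 to NewGene.4333 on the FPKM scale was 0.0277 in T2 replicate 1, 0.597 in T3 replicate 2 and 0.616 in T3 replicate 3, and it lay between 1.09 and 2.35 in the other 8 libraries. Their summed share of the reads ranged from 8.36% in T1 replicate 1 to 21.6% in T3 replicate 1, and in T2 replicate 1 it was 18.9%. The 6 other members of pattern B were low together with 102266368 in T2 replicate 1, as described with the patterns below.

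Next in order of share were 102282259 and NewGene.14489. The gene 102282259 (874 bases) had 19598 and 11708 FPKM in CON, 27082, 39418 and 40546 FPKM in T1, 21985, 23201 and 28299 FPKM in T2, and 58937, 34157 and 26572 FPKM in T3. Both cattle lay below all 9 yaks. NewGene.14489 (526 bases) had 57068 and 77692 FPKM in CON, 14277, 42966 and 23167 FPKM in T1, 33650, 26938 and 47760 FPKM in T2, and 78994, 26902 and 42189 FPKM in T3. Its cattle libraries were above all yaks except T3 replicate 1. The long NewGene.14154 held between 1787 and 3197 FPKM in 10 libraries and 289 FPKM in T1 replicate 3.

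A set of 3 members had high means through few libraries and was picked out after the values were seen. The gene 102276161 (2272 bases) had 59633 FPKM in T3 replicate 2, 6705 FPKM in T3 replicate 1 and 1212 FPKM in T1 replicate 1, against 55.8 to 226 FPKM in the other 8 libraries. The gene 102270677 (497 bases) had 71496, 22852 and 11569 FPKM in the same 3 libraries and 489 to 1646 FPKM in the others. NewGene.4675 (228 bases) had 19814 FPKM in T3 replicate 2 and 1002 FPKM in T3 replicate 1, while its T1 replicate 1 value of 157 FPKM lay below the 172 FPKM of CON replicate 2. The T3 animals differed widely, since T3 replicate 3 had 69.9, 489 and 36.5 FPKM of the 3 genes in the order above.

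The 3 genes moved together. Pairwise Pearson correlations of their log2 levels over the 11 libraries ranged from 0.937 to 0.986, which is a description over libraries that include the 3 high ones. The summed share of the 3 genes was 17.6% of the reads in T3 replicate 2, 2.68% in T3 replicate 1 and 0.854% in T1 replicate 1, and it was between 0.0408% and 0.137% in the other 8 libraries. In T3 replicate 2 the gene 102276161 alone held 13.5% of the reads (3812429 reads) and was the most read gene.

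Other members were at very different levels in animals of the same group, and these too were picked out after the values were seen. NewGene.14488 (485 bases) was the only member with a library at 3 reads or fewer. It had 0 reads in T3 replicate 1 and 1 read in T2 replicate 1, 25 to 123 reads in CON replicate 1, T1 replicate 2 and T2 replicates 2 and 3, and 6882 reads (376 FPKM) in CON replicate 2. In T1 replicates 1 and 3 it had 8765 and 4641 FPKM, and in T3 replicates 2 and 3 it had 23472 and 9252 FPKM. The numbers of NewGene.14488 and NewGene.14489 follow each other, as do those of NewGene.4332 and NewGene.4333, but the files give no position for them. NewGene.4332 (295 bases) was highest in T2 replicates 1 and 2 (20465 and 25954 FPKM) and lowest in T1 replicate 2.

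A further 3 members had libraries far from the rest. The gene 102279070 was at 98.6 to 215 FPKM in T1 replicate 3, T2 replicates 2 and 3 and T3 replicate 3, and at 2786 to 6579 FPKM in the other 7 libraries, with none between. The gene 102281485 was at 31.0 FPKM in T2 replicate 2 and 37.0 FPKM in T3 replicate 2, against 576 to 2242 FPKM elsewhere. The gene 102270170 was at 5423 FPKM in T2 replicate 1 and at 180 to 661 FPKM elsewhere. The low levels of 102281485 rest on 458 reads in T2 replicate 2 and 428 reads in T3 replicate 2. How the counting treated reads shared by similar genes or alleles, and whether it used strand, is not given in the sources used here.

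**Figure D3:**
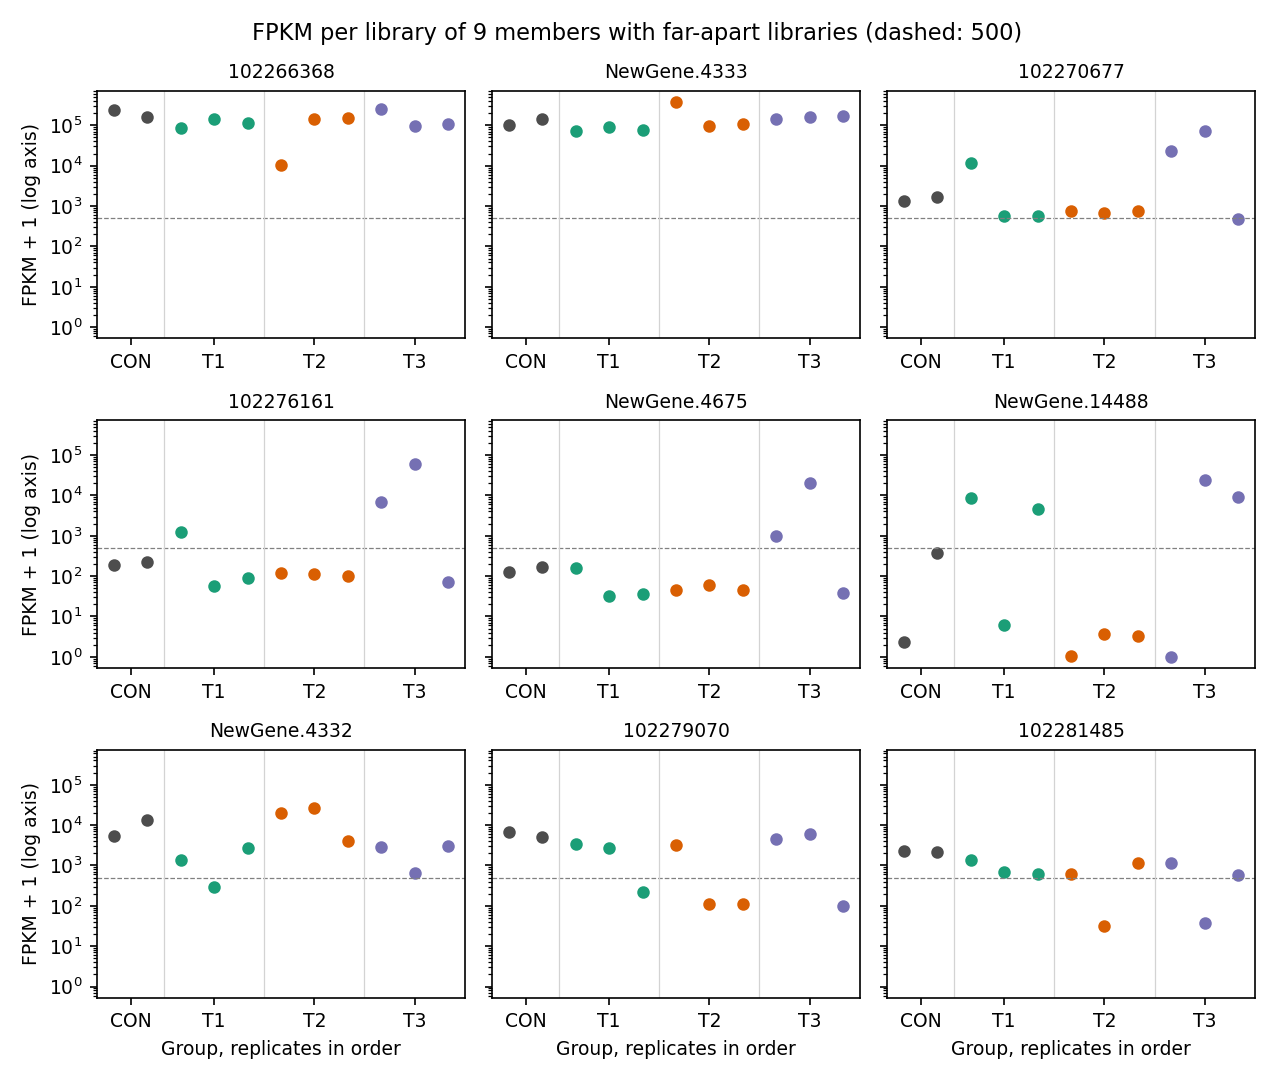
FPKM + 1 on a log axis in each library for 9 members, with replicates in order within CON, T1, T2 and T3 and a dashed line at 500 FPKM. NewGene.4333 and 102266368 part in T2 replicate 1, 102276161, 102270677 and NewGene.4675 are high in T3 replicates 1 and 2, and NewGene.14488, NewGene.4332, 102279070 and 102281485 lie far apart within groups.

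Over all 71 members, the median ratio of the highest to the lowest library was 3.65, with NewGene.14488, listed at 0 in 1 library, ranked as the most uneven. It was below 2 in 4 members, below 4 in 40 and at least 10 in 13. The most even member was 102271153 (3176 bases), at 639 to 938 FPKM, a ratio of 1.47. The median standard deviation within groups on the log2 scale was 0.57 for the 71 members, 0.43 for all 13636 genes tested and 0.37 for 825 tested genes that were not members but had a mean log2 level of 50 FPKM or more. The highest library of a member was T1 replicate 1 in 22 members and T3 replicate 2 in 14, and the lowest was T2 replicate 1 in 21 and T3 replicate 3 in 18.

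To see which members varied together, each library was scaled to its reads outside the members, the levels were put on a log2 scale, and members were joined by average linkage where their mean correlation over the 11 libraries was at least 0.6. This placed 50 of the 71 members in 4 patterns of at least 5 members, and 21 in none. The patterns were drawn from these values and describe them only.

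Pattern A held 31 members, of which 24 were shorter than 1000 bases, with a median length of 689 bases. Relative to each member's median library, its median level on the log2 scale was 1.10 in T3 replicate 2, 0.94 in T3 replicate 1 and 0.71 in T1 replicate 1, and lowest in T3 replicate 3 at −0.63. The 2 cattle stood at 0.14 and −0.10. The set of 3 genes above (102276161, 102270677 and NewGene.4675) falls in this pattern, as does 102282148, which had 7213 FPKM in T1 replicate 1, 6792 and 6239 FPKM in T3 replicates 1 and 2, and 2873 FPKM in T3 replicate 3. The pattern divided the T3 animals and set T1 replicate 1 beside 2 of them.

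Pattern B held 7 members, among them 102266368 and 102285161, and its mark was T2 replicate 1, with a median of −1.68 on the log2 scale. The gene 102285161 (879 bases) had 1929 FPKM in that library and 4154 to 10680 FPKM in the other 10. The 7 genes together held 1.21% of the reads in T2 replicate 1 and 10.5% and 11.4% in T2 replicates 2 and 3. Most of the latter was 102266368, which alone held 0.610%, 8.27% and 8.85% in T2 replicates 1, 2 and 3.

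Pattern C held 7 members that were low in both cattle, with medians of −1.04 and −1.12 on the log2 scale, and in T2 replicate 1, with −0.84. They include 102282259, 102282243 and 102281221. Their summed share was 1.64% ± 0.505 in CON (SD, n = 2), 4.25% ± 0.677 in T1, 2.95% ± 0.636 in T2 and 4.29% ± 1.54 in T3 (SD, n = 3 each), and the lowest yak (2.40%) was above both cattle. Pattern D held 5 members, 102266974 among them, with its lowest median in T3 replicate 2 (−0.64) and its highest in T2 replicate 3 (0.59). Their summed share was 0.818% ± 0.0363 in CON (SD, n = 2), 0.686% ± 0.0812 in T1, 0.617% ± 0.251 in T2 and 0.408% ± 0.172 in T3 (SD, n = 3 each). T3 replicates 1 and 2 stood at 0.337% and 0.283%, and T3 replicate 3, at 0.604%, lay within the range of T2.

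**Figure D4:**
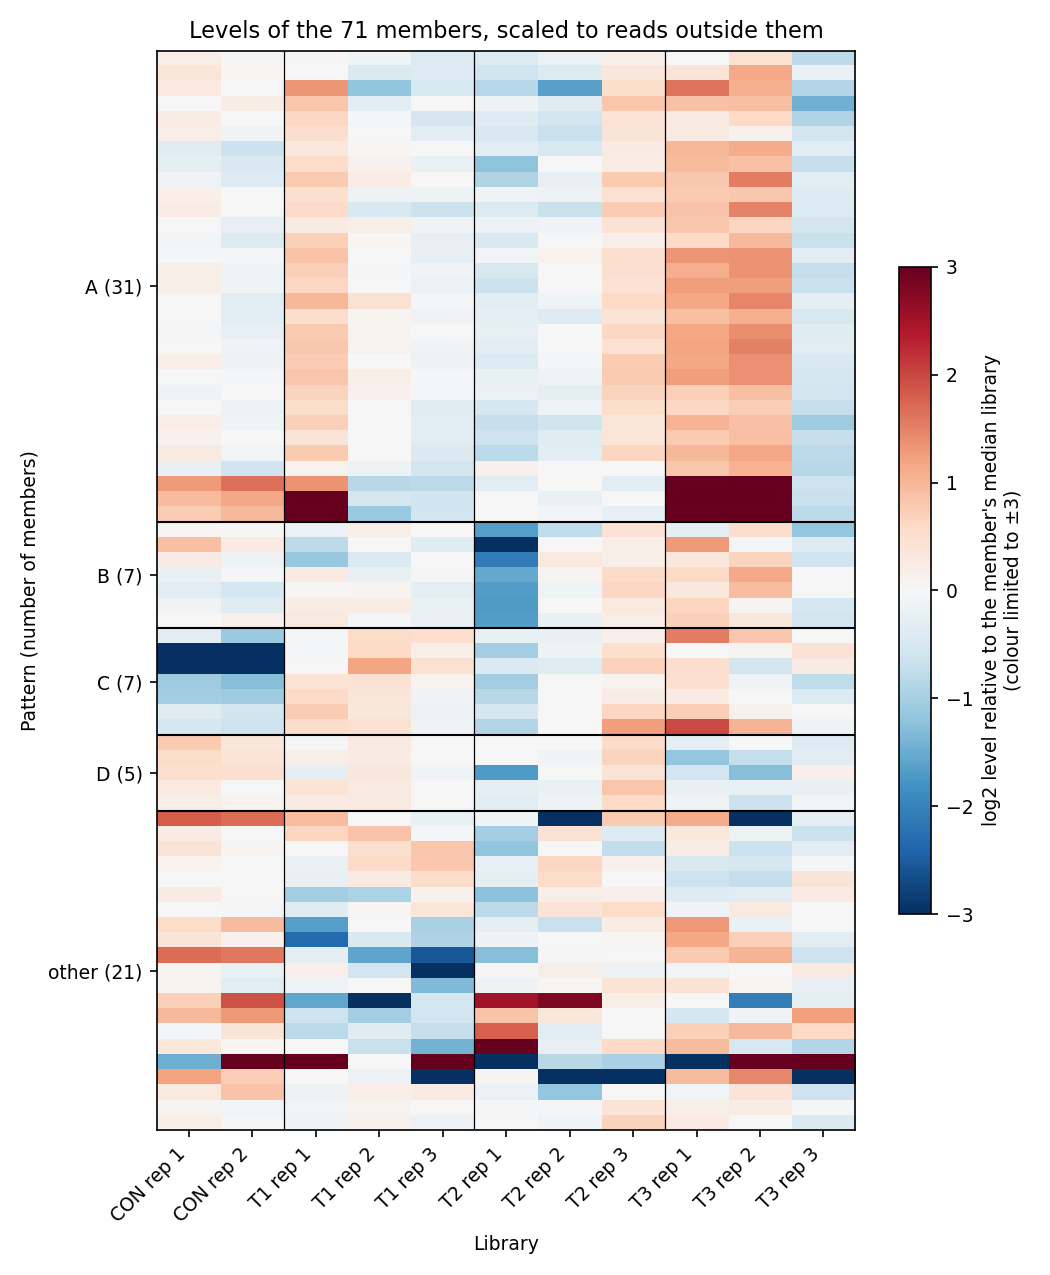
Log2 level of the 71 members (rows, ordered by pattern) in the 11 libraries (columns), scaled to the reads outside the members and shown relative to each member's median library, with colours limited to 3 in either direction. Pattern A is red in T3 replicates 1 and 2 and T1 replicate 1, pattern B is blue in T2 replicate 1 and pattern C is blue in both cattle.

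The groups were compared with limma on log2(FPKM + 1), fitted on the 13636 genes that reached 1 FPKM in 2 or more libraries. A gene was called differentially expressed where it changed 2-fold or more with an adjusted p (Benjamini-Hochberg, over all genes tested) under 0.05. All 71 members passed the filter on low values. The 4 comparisons with CON share the same 2 cattle, so that they are not independent of each other.

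Few members were called between cattle and yaks. In T1 against CON, 2 members were higher and 1 lower, where 1.50% of all genes were called higher and 1.29% lower. T2 and T3 each had 2 members higher than CON and 0 lower. Of all genes, 0.968% were called higher and 1.21% lower in T2, and 0.719% higher and 2.08% lower in T3. In all 9 yaks against CON, 2 members were higher and 1 lower, where 1.51% of all genes were called higher and 2.12% lower. Counts of 1 or 2 in 71 members are too small to set apart from these shares. A member low in one group can have passed the 500 FPKM threshold only through the groups where it is high, and the mean of CON was below 500 FPKM in both members called higher in yaks. Without T3 replicates 1 and 2, in which reads were concentrated, 102282243 and 102281221 were called higher in T1, T2, T3 and all yaks, but T3 is then a single library whose spread is assumed to be that of the other groups. NewGene.9672 was then called lower in all yaks only when the values were scaled to reads outside the members (adjusted p = 0.0445), and 2 members were lower in T1 on either scale, where 201 of all genes were lower as deposited and 219 when scaled.

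The 2 members higher in yaks were about 10 times as abundant there as in cattle. The gene 102282243 (1589 bases) had 181 and 127 FPKM in CON, 1713, 2491 and 2034 FPKM in T1, 765, 1491 and 2218 FPKM in T2, and 1248, 1277 and 2219 FPKM in T3. Every yak was above both cattle, and the log2 fold change against all yaks was 3.41 (SE 0.43, limma adjusted p = 0.000768). The gene 102281221 (2838 bases) had 61.6 and 69.3 FPKM in CON, 658, 1407 and 906 FPKM in T1, 439, 486 and 956 FPKM in T2, and 667, 308 and 732 FPKM in T3. Again every yak was above both cattle, and the log2 fold change was 3.33 (SE 0.41, limma adjusted p = 0.000634). Against each altitude alone, the log2 fold change of 102282243 was 3.76 in T1, 3.16 in T2 and 3.32 in T3, and that of 102281221 was 3.83, 3.15 and 3.01, all of them called. Over the alternative analyses of all yaks against CON, 102282243 stayed called in 20 of 21 (adjusted p from 5.48e-06 to 0.0534) and 102281221 in 21 of 21 (up to 0.0355). Leaving out either CON replicate leaves a single cattle library, assumed to vary like the other groups, and no member was then called against T2 or T3. In those fits 0.484% to 0.660% of all genes were called. The log2 fold changes of the 2 genes there were 2.91 to 3.58 (adjusted p from 0.0518 to 0.154). Both genes are members only through the yaks, so that these calls and their p values describe the genes and support nothing about the members.

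The member lower in yaks was NewGene.9672 (444 bases). It had 1916 and 1876 FPKM in CON, 575, 218 and 120 FPKM in T1, 255, 675 and 628 FPKM in T2, and 852, 964 and 420.0 FPKM in T3. Both cattle were above every yak, and the log2 fold change against all yaks was −2.12 (SE 0.54, limma adjusted p = 0.0498). This call was close to the threshold and was kept in 4 of 21 alternative analyses, with adjusted p from 0.00165 to 0.426. Against T1 the log2 fold change was −2.94 (adjusted p = 0.0281), kept in 17 of 22 alternatives. Against T2 and T3 the log2 fold changes were −1.99 (adjusted p = 0.160) and −1.43 (adjusted p = 0.275), and neither was called.

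Of the 10 members with the highest share of reads, 0 were called in any of the 7 comparisons, where at most 3.63% of all genes were, so that a count of 0 in 10 says little. The smallest limma adjusted p among them was 0.240, and 4 of the values had an unadjusted p under 0.05 with a fold change of at least 2. Limma's voom on the recovered reads also called 0, with a smallest adjusted p of 0.0998. The variance trend used in the fit gives the most abundant genes large standard errors. For 102282259, in which both cattle lay below all yaks, the log2 fold change in all yaks was 1.07 with an SE of 1.28 (adjusted p = 0.792), and without the trend the SE was 0.32 (adjusted p = 0.103). An alternative without the trend, chosen after seeing the data, likewise called 0 of the 10, with a smallest adjusted p of 0.0975 and 11 values at an unadjusted p under 0.05. With estimated library weights 102276161 and 102270677 were called higher in T3 against each other group (adjusted p from 0.00938 to 0.0468), but both were chosen through their high T3 libraries, so that these calls are a description.

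**Figure D5:**
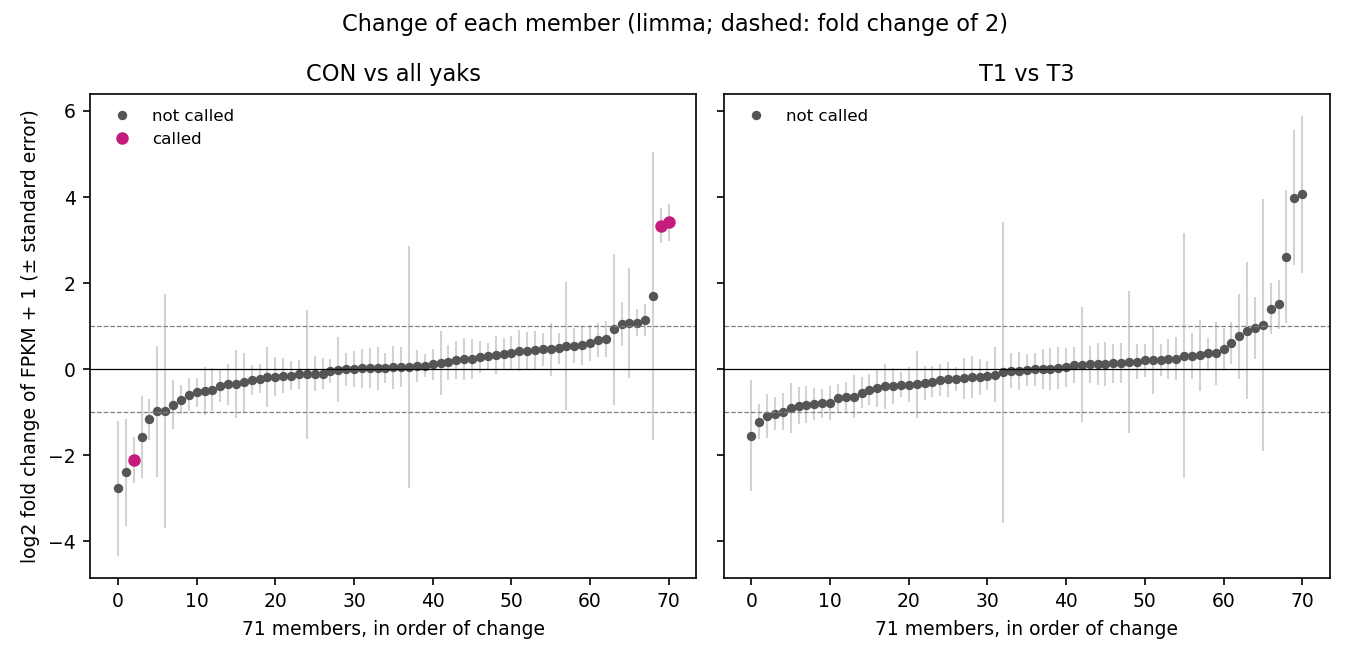
Log2 fold change of FPKM + 1 with its standard error for each of the 71 members in order of size, for all yaks against CON (left) and for T3 against T1 (right); dashed lines mark a fold change of 2 and called members are in colour. On the left, 3 members are called, at 3.41, 3.33 and −2.12, and on the right 0 of the 71.

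Limma called 0 members between any 2 of the altitudes (T1, T2, T3), where 0% of all genes were called as well. At an unadjusted p under 0.05 with a fold change of at least 2 there were 4, 6 and 7 members in the order T1 vs T2, T1 vs T3, T2 vs T3, against 356, 775 and 739 of all genes. Voom on the recovered reads called 0 too, with 6, 7 and 5 members and 552, 1316 and 1166 of all genes at an unadjusted p under 0.05 with a fold change of at least 2. The counts for T3 depend on T3 replicate 3. Without it, 5 members were called between T1 and T3 and 4 between T2 and T3, 7.04% and 5.63% of the members, where 8.71% and 6.34% of all genes were called. These include 102276161, 102270677 and NewGene.4675, which owe their high means to T3 replicates 1 and 2 and were low in the library left out, so that nothing is read from their calls.

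By overlap of the libraries alone, 2 members had T3 libraries that were all above T1, and 11 had T3 libraries that were all below T1. Among all genes tested, 0.579% were above in this way and 21.6% below. The higher members were NewGene.4333, given above, and 102267346 (4769 bases). For NewGene.4333 the limma log2 fold change was 1.03 (SE 2.93, adjusted p = 0.876). Without the variance trend its SE was 0.44 (adjusted p = 0.261). The gene 102267346 had 762, 2623 and 2046 FPKM in T1 and 6182, 4344 and 2830 FPKM in T3 (log2 fold change 1.40, SE 0.59, adjusted p = 0.240). The lower members with the largest change were 102266974 and 102269609. The gene 102266974 (550 bases) had 1514, 1499 and 1342 FPKM in T1 and 426, 563 and 1001 FPKM in T3 (log2 fold change −1.22, SE 0.40, adjusted p = 0.177). The gene 102269609 (1906 bases) had 659, 860.0 and 1181 FPKM in T1 and 546, 288 and 493 FPKM in T3 (log2 fold change −1.03, SE 0.39, adjusted p = 0.210). In none of the 4 did the difference pass the test. Of 22 alternatives, 102266974 passed it in 2 (library weights and without T3 replicate 3, adjusted p = 0.0131 and 0.0238) and 102269609 in 1 (library weights, adjusted p = 0.0469). Scaled to reads outside the members, their log2 fold changes were −0.87 (adjusted p = 0.611) and −0.69 (adjusted p = 0.680), and over the alternatives they came as near 0 as −0.47 and −0.51.

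Where the members took a larger share of the reads, the median level of all genes tested was lower. FPKM is scaled to all reads of a library, so a link of this kind is built into the measure. The values below only give its size. From T1 to T3 the mean share of reads outside the members fell by 0.35 on the log2 scale, and the median log2 fold change of all genes tested was −0.37. Scaling each library to its reads outside the members brought this median to −0.13. The median log2 fold change of the members was −0.02 as deposited and 0.33 when scaled to the other reads, and without T3 replicates 1 and 2, which leaves 1 T3 library, −0.58 as deposited and −0.51 when scaled. With all libraries scaled, the members with non-overlapping libraries became 3 higher and 3 lower, where 2.16% and 10.5% of all genes were higher and lower. From T2 to T3 the share outside the members fell by 0.25 and the median of all genes was −0.30, while the median of the members was 0.15 as deposited and 0.40 when scaled. It was −0.09 without T2 replicate 1, −0.29 without T3 replicates 1 and 2, and −0.32 without those 2 when scaled, so that its direction rests on single libraries. From CON to T1 the share outside the members was higher by 0.16 and the median of all genes was 0.17. From CON to all yaks both were near 0, at 0.01 and 0.02.

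From T1 to T2, 4 members were above and 3 below without overlap (all genes 3.56% and 9.74%). From T2 to T3, 0 were above and 4 below (all genes 0.770% and 13.2%). Scaled to reads outside the members, T1 to T2 had 4 above and 3 below (741 and 929 of the 13636 genes). T2 to T3 then had 0 above and 2 below (284 and 1157 of the 13636 genes).

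Against the cattle many members did not overlap, and so did many other genes. In T1, 22 members were above both cattle and 12 below, where 31.7% and 13.9% of all genes were. Scaled to reads outside the members this balance turned, to 12 above and 16 below, with 3293 and 2604 of the 13636 genes above and below. In T2 there were 7 above and 13 below (all genes 21.0% and 12.7%). In T3 there were 10 above and 12 below (all genes 9.17% and 24.9%). When scaled, T3 turned as well, to 11 above and 9 below (1627 and 2904 of the 13636 genes). T2 then had 6 above and 13 below (2467 and 1984 of the 13636 genes). As deposited, all 9 yaks lay above both cattle in 6 members, where 5.60% of all genes did. They lay below both in 3 members, where 5.90% did. Of these 9 members, 102282243, 102281221, 102282259 and NewGene.9672 are described above. The gene 102281485 was another of the 3 lower ones, with 2242 and 2116 FPKM in CON and at most 1406 FPKM in a yak. Among the 6 higher ones, 102282243, 102281221, 102279454 and 102264582 had CON means of 154, 65.5, 404 and 263 FPKM. They met the rule of 500 FPKM only through the yaks. Counts of members above the cattle are therefore a description and support nothing about the members.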

How the data were processed

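Lung RNA from 2 cattle and 9 yaks was sequenced, in libraries that the paper calls mRNA data. The authors filtered reads by quality, aligned them with HISAT2 to the yak genome BosGru_v2.0 and assembled transcripts with StringTie, while the submitters' processing notes name Bowtie2 2.2.8 and TopHat2 2.1.1. The authors deposited FPKM and gene length, 1 table per library. The counting tool, strand use and the treatment of shared reads are not given in the sources used here. Groups followed the altitude and breed labels.

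FPKM times length gave whole reads for 100% of values (within 0.02 of a whole number), with 28138973 to 54515645 reads per library (median 38912475) and shares with exact 95% intervals. As the deposited values are FPKM, the main comparison of groups used limma 3.58.1 in R 4.3.3 on log2(FPKM + 1). It had all 4 groups in one fit with a variance trend, over 13636 genes. The recovered reads were compared with voom as an alternative. The fit was tested on simulated data. Summaries used Python 3.11.15, pandas 2.3.3, numpy 2.4.6 and scipy 1.17.1, and matplotlib 3.10.9 drew the plots.

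The members, gene lists and tests were chosen with earlier results of these data known. Named by rule were the 10 members with the highest mean share, the 2 genes on either side of the threshold, up to 2 members in each direction called in CON vs all yaks, and 2 in each direction by log2 fold change among members not overlapping between T1 and T3. Members named for uneven levels were chosen after seeing them. The alternatives were other scalings, pseudocount, filter, library weights, 2 groups per fit, a replicate block, voom on recovered reads and leaving out each library. A fit without variance trend and leaving out T3 replicates 1 and 2 were added after seeing the data. No sequences or coordinates were used here.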

Additional observations from a re-analysis of the deposited data

Results flagged for a closer look

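The members' summed share of reads and the levels of the 15 members named by rule for their share or their difference between groups were examined for a library far from the others, by the gap between the highest or lowest of the 9 yaks and its nearest neighbour as a fraction of their range, set against Dixon's 95% critical value. Chance flags about 1 in 20 values that were not chosen by their level. Here the same values chose the members, and a gene can have entered through its highest library, so that this rate does not hold and the flags are a description. Of 16 values examined, 5 were beyond the critical value. The gap of NewGene.4333 was 0.668, with T2 replicate 1 at 383637 FPKM and the next yak at 174487 FPKM. That of 102282259 was 0.498, with T3 replicate 1 at 58937 FPKM and the next at 40546 FPKM. That of NewGene.14154 was 0.515, with T1 replicate 3 at 289 FPKM and the next lowest at 1787 FPKM. That of 102276161 was 0.888, with T3 replicate 2 at 59633 FPKM and the next at 6705 FPKM. That of 102270677 was 0.685, with T3 replicate 2 at 71496 FPKM and the next at 22852 FPKM. T3 replicate 2 is the library in which 50 genes held 50% of the reads. Whether this has a part in these values was not tested.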

How the results depend on the processing

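No log2 fold change given above for 102282243, 102281221, NewGene.9672, 102267346, NewGene.4333, 102266974, 102269609 or 102282259 changed sign under the alternatives run, and of these values 333 kept their side of the threshold, 33 no longer passed it and 4 passed it newly. For 102276161 and 102270677 T3 replicate 3, the T3 library that remains without replicates 1 and 2, lay below both cattle. The median over all 71 members changed sign under some alternatives. In CON vs T1 it went from 0.20 to −0.03 with median-ratio scaling. In CON vs T2 it went from 0.04 to −0.02 when scaled to reads outside the members and −0.07 with median-ratio scaling. It was −0.02 there with the replicate block, −0.002 without CON replicate 2, −0.06 without T2 replicate 2 and −0.28 without T2 replicate 3. In CON vs T3 it went from 0.10 to −0.04 without T3 replicate 1 and −0.37 without T3 replicates 1 and 2. Without those 2, CON vs all yaks went from 0.04 to −0.07. In T1 vs T3 it went from −0.02 to 0.12 without T1 replicate 1 and 0.25 without T3 replicate 3. It was 0.26 there with library weights and 0.51 with median-ratio scaling. With library weights the members called were 7, 6 and 12 in CON vs T1, T2 and T3, 7 in CON vs all yaks, 8 in T1 vs T3 and 4 for T2 against T3, where 1363, 788, 1885, 1175, 1266 and 317 of all 13636 genes were called. In CON vs T1 a fit of the 2 groups alone called 6 members, the fit without variance trend 5, and leaving out T3 replicates 1 and 2 called 4, where 5.62%, 2.83% and 3.79% of all genes were called. Leaving out each library in turn gave 1 to 6 members in CON vs T1 (0.623% to 4.26% of all genes), 0 to 2 in CON vs T2 (0.484% to 2.94%), 0 to 7 in CON vs T3 (0.638% to 8.38%), 1 to 5 in CON vs all yaks (0.726% to 4.94%), and between altitudes 0 in T1 vs T2 (up to 0.022%), 0 to 5 in T1 vs T3 (up to 8.71%) and 0 to 4 for T2 against T3 (up to 6.34%). The calls against T2 and T3 were lost without either CON replicate. In CON vs T1 and CON vs all yaks, 1 member each was called without CON replicate 2 (all genes 0.623% and 0.829%) and 5 each without T2 replicate 1 (all genes 3.40% and 4.51%). Without T3 replicate 3 there were 6 members in CON vs T1, 7 in CON vs T3, 5 for T1 against T3 and 4 for T2 against T3, where 4.26%, 8.38%, 8.71% and 6.34% of all genes were called. The cause was not tested. A fit with the replicate block called 2 members in each comparison with CON (all genes 2.05%, 1.83% and 2.23% in T1, T2 and T3 and 3.29% in all yaks) and 0 between altitudes. The deviations of libraries from their group means were correlated between groups. Same-numbered libraries gave correlations from −0.10 to 0.36 (median 0.03), and differently numbered ones from −0.39 to 0.26 (median −0.04). These values cannot show whether the replicate numbers pair the animals. A threshold of 250 FPKM gave 137 members, one of 1000 FPKM 34, and 39 remained among as many genes ranked by share of reads. Leaving out a library gave 69 to 72 members, and group shares of 33.6% to 36.5% in CON, 26.0% to 28.4% in T1, 31.6% to 33.3% in T2 and 38.9% to 48.3% in T3. As a share of summed FPKM the members held 70.8%, 59.7%, 67.1% and 74.3% in CON, T1, T2 and T3. With 2 or 3 animals per group, the number of animals and not the depth limits the precision.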
